A study of Mus musculus with 28 samples.

Results

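The genes described here are 9 transcription factors of meiotic and post-meiotic male germ cells and their near relatives: Mybl1, Tcfl5, Rfx2, Crem, Sox30, Tbpl1, Rfx1, Rfx3 and Sox5. They were chosen by name, with earlier results of these data known, and no measured value entered the rule. Their H3K27ac peaks are the peaks whose deposited gene label is the member's symbol, which holds for 330 of the 471458 peaks in the 12 H3K27ac libraries, and the 9 genes are among 17830 gene symbols listed there. Of the 330 peaks, 117 lay within 1 kb of a transcript start listed under the member's symbol alone and are called promoter peaks. The other 213 were in introns, in exons or outside the gene. A further 20 peaks carried a member's symbol together with that of another gene, and were read only where they covered a member's start.

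H3K27ac, acetylation of lysine 27 of histone H3, marks active promoters and active enhancers. It was mapped by ChIPmentation, a chromatin immunoprecipitation in which a transposase adds the sequencing adapters on the beads. All cells came from testes of C57BL/6 mice. Thy1+ spermatogonia (enriched for undifferentiated cells) and c-Kit+ spermatogonia (differentiating cells) were taken at postnatal day 7 from wild-type (WT) mice and from mice with a knockout (KO) of Scml2, which encodes a germline Polycomb protein, with 2 libraries in each of these 4 groups. Pachytene spermatocytes (PS) and round spermatids (RS) were from adult KO mice, again with 2 libraries each, so the 6 H3K27ac groups hold 12 libraries. WT libraries of PS and RS with this mark were not analysed here. Stage therefore goes together with age, and every PS or RS value below is from KO cells only. The inputs, chromatin without immunoprecipitation, numbered 16 libraries.

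Male germ cells pass from mitotic spermatogonia through the long meiotic prophase to haploid spermatids, and each step has its own regulators. MYBL1 (A-MYB) is the regulator that switches on pachytene genes, including those of the pachytene piRNA pathway, and TCFL5 is a basic helix-loop-helix factor of spermatocytes. RFX2 binds X-box motifs and drives genes of cilia and spermatid development. RFX1 and RFX3 bind the same motifs and are expressed in many tissues. CREM, through its activator form in the testis, SOX30, an SRY-related factor, and TBPL1 (TRF2), a relative of the TATA-binding protein, are needed for round spermatids to activate their genes. SOX5 is a further SRY-related factor that has a short form in the testis.

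The sequences just before the starts are shown for members that stand for the different patterns found: Sox30, Tcfl5 and Rfx2, whose promoter signal ranked higher in adult cells; Rfx1, whose promoter was among the highest in every library; and Sox5, where a peak called in both RS libraries and no other was at an internal start. Each is the 250 bases before a RefSeq start in GRCm38.p6, on the gene's strand. Capitals mark a match, on either strand, to any of 6 short motifs of MYB, RFX, CREB, E-box, SOX and TATA-binding factors, whose letters are given after the sequences.
Sox30, chr11:45980060-45980309, plus strand: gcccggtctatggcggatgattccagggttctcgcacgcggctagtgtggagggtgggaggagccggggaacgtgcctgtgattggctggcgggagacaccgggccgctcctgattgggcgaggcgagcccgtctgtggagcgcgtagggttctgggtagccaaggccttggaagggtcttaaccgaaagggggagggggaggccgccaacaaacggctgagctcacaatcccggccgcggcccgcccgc
Tcfl5, chr2:180642692-180642941, minus strand: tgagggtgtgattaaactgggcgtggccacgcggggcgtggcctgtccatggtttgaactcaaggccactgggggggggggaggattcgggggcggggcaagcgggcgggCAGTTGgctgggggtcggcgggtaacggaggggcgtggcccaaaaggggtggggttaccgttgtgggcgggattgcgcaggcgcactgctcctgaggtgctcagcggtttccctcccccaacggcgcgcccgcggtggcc
Rfx2, chr17:56831009-56831258, minus strand: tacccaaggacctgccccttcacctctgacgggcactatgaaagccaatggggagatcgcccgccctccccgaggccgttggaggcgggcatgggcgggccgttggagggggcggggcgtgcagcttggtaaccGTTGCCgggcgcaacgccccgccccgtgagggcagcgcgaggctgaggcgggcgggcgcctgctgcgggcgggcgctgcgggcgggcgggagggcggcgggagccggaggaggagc
Rfx1, chr8:84066586-84066835, plus strand: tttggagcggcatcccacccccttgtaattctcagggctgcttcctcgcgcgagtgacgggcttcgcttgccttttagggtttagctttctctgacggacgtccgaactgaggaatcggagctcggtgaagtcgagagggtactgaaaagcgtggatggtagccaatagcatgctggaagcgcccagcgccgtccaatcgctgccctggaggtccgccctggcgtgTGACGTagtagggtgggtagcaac
Sox5, chr6:143947107-143947356, minus strand: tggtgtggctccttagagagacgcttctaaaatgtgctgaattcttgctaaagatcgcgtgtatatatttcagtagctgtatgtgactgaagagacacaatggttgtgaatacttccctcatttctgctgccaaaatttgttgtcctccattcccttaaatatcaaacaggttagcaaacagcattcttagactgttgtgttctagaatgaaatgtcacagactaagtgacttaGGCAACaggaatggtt

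RefSeq promoter sequences were read for 7 of the 9 members. Entries on chromosome 18, where Crem lies, were left out, and no window was matched for Mybl1. The core motif of MYB factors, searched as CAACTG, was found among those 7 in Tcfl5 alone, 140 bases before the start, and in 11.1% of 32817 RefSeq promoter windows of the same length. For RFX factors the core was searched as GTTGCC and was in 10.4% of all promoters. Among the members it was in Rfx2, which itself encodes an RFX factor, 116 bases before the start, and in Sox5. The core of the cAMP response element, the site of CREB and CREM, was searched as TGACGT and was present in 6.46% of all promoters. It was matched in Rfx1, 24 bases before the start. None of the 7 windows held the E-box CACGTG, which 6.02% of all promoters hold. The SOX core AACAAT was likewise in none of the 7, and in 9.42% of all promoters. The TATA box, searched with the letters TATAAA, was also in none of the 7, and in 12.4% of all promoters. The windows of Sox30, Tbpl1 and Rfx3 had no match to any of the 6 motifs, and no motif position overlapped another in the 7 windows. The 6 windows at the members' first listed starts were rich in G and C, from 59.2% in Rfx1 to 76% in Rfx2, with 68% in Sox30 and 70.4% in Tcfl5, against a median of 52.4% over all promoters. The internal Sox5 window differed from these, with 39.6% G and C and 3 CpG dinucleotides, where the other 6 held 19 to 30 CpGs and the median promoter held 6.

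The unit of every value below is the fold enrichment that the authors deposited for a peak. It is the authors' own value for that peak, and the ratio of its signal height plus 1 to the background height plus 1. That background, read back from the values, was the same for all peaks of a library (highest over lowest at most 1.00002). Fold enrichment is thus peak height rescaled by 1 number per library, without a local background. For a promoter, the highest peak within 1 kb of the listed start was taken in each library. Its rank among 19733 listed promoters of the same library was used to compare libraries of unlike depth. Listed promoters are starts that label at least 1 peak of the H3K27ac or input libraries, under 1 symbol alone. Starts that label no peak are not among them. A promoter without a peak in a library shared its lowest rank. Peaks in all 4 adult libraries and in no spermatogonial one thus gave a higher adult rank by the calls alone. Read depth is unknown. The background height, which moves with depth, ran from 0.564 to 1.62, the peaks per library from 17877 to 73316, and the share of promoters with a peak from 54.4% to 75.4%. Each of the 4 adult libraries had more peaks and more called promoters than any of the 8 spermatogonial libraries. Median promoter fold enrichment ran from 8.06 to 14.7 in the spermatogonial libraries and from 12.4 to 17.6 in the adult ones. Meiotic markers separated the adult libraries from the spermatogonial ones. The promoters of Sycp1, Sycp3 and Spo11 ranked higher in every adult library than in every spermatogonial library. Of the spermatid genes, Prm1, Tnp1 and Acrv1 did so and Spaca1 did not. Prm1, Tnp1 and Acrv1 had no spermatogonial peak within 1 kb of their starts. In the limma test described below, none of these 3 meiotic markers passed between PS and RS. Their log2 differences of RS minus PS were 0.12, -0.26 and 0.03 in that order (limma adjusted p 0.714, 0.409 and 0.930). Of the 4 spermatid genes 2 passed, as higher in RS, where 4.76% of all regions within 1 kb of a listed start did. Of the undifferentiated markers, Etv5 was called in 8 of 8 spermatogonial libraries, Zbtb16 in 4, Id4 in 3 and Gfra1 in 1. Of the differentiating markers, Kit was called in 6 of 8, Sohlh1 in 2, Stra8 in 1 and Dmrtb1 in 0. Id4 and Dmrtb1 ranked higher in every adult library, and none of these 8 genes ranked lower. Markers of somatic testis cells were also called. The Sertoli cell genes Sox9, Wt1 and Amh had peaks in 6, 5 and 2 of the 8 spermatogonial libraries. The Leydig cell genes Star and Insl3 had peaks in 5 and 1 of them, and the myoid cell genes Acta2 and Myh11 in 6 and 2. The macrophage gene Csf1r had peaks in 0. Sertoli cell genes had mean fold enrichments in PS of 8.65 ± 0.17 (SD, n = 2) for Sox9 and 15.2 ± 6.40 for Amh, with Sox9 uncalled in RS and Amh at 6.62 ± 1.71. The Leydig cell gene Star was at 10.9 ± 0.37 in PS and 4.86 ± 0.78 in RS, while Cyp17a1, a defining enzyme of Leydig cells, had no peak in any library. The part of such cells in the member values was not tested.

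The 9 members had 13 starts listed under their own symbols. Calls were made at 105 of the 156 combinations of start and library, and none of the 13 starts had a peak in any of the 16 inputs. At 7 starts (Mybl1, Sox30, Tbpl1, Rfx1, Rfx3 and 2 of the 4 of Crem) all 12 libraries had a peak, where the share over all listed promoters was 47.7%. The same 7 were the starts called in all 8 spermatogonial libraries (48.4% of all promoters), and with Tcfl5, Rfx2 and a further Crem start 10 were called in all 4 adult libraries (66.1% of all promoters). The other 3, in Crem, Rfx3 and Sox5, were called in 1 library or none, as were 20.6% of all promoters. By rank, 5 of the 13 starts stood higher in every adult library than in every spermatogonial library, against 11.9% of all promoters. They were Mybl1, Tcfl5, Rfx2, Sox30 and an internal start of Crem. That Crem start had no spermatogonial peak, so its higher rank follows from its calls alone, as at 5.8% of all promoters. None of the 13 stood lower in every adult library, against 8.06% of all promoters.

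**Figure D1:**
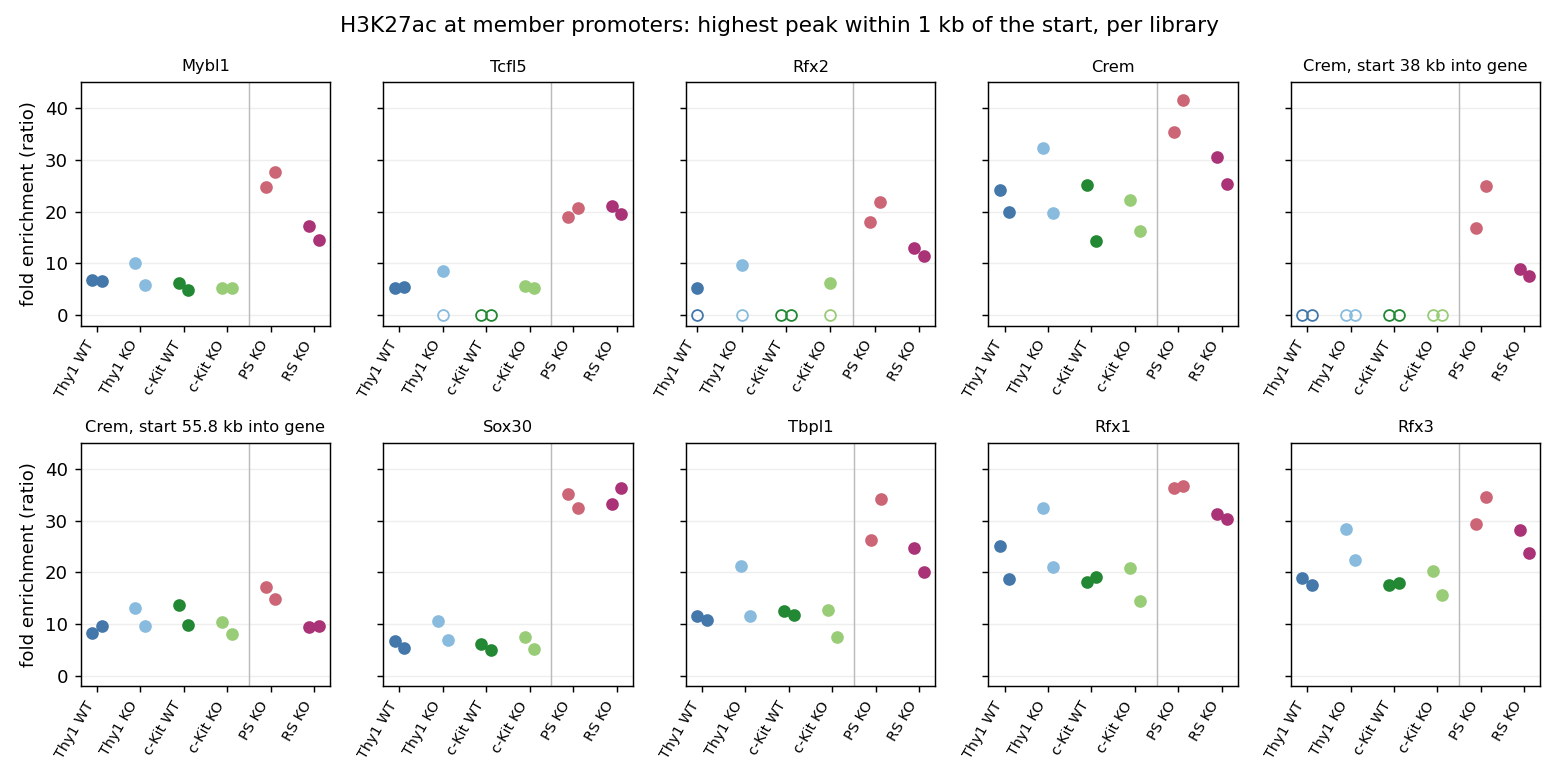
Fold enrichment (ratio, vertical axis) of the highest H3K27ac peak within 1 kb of 10 member starts, for the 2 libraries of each of 6 groups. Filled points are called peaks and open points at 0 are libraries without a peak; the Sox30 points sit between 4.96 and 10.6 in spermatogonia and between 32.5 and 36.2 in PS and RS.

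Mybl1, the activator of the pachytene program, had a weak promoter peak in spermatogonia and a strong one in spermatocytes. Its start is at position 9700209 of chromosome 1 (mm10), on the minus strand. In the 8 spermatogonial libraries the fold enrichment had a lowest value of 4.96, a median of 6.01 and a highest of 10.1. PS had 24.8 and 27.7, and RS had 17.2 and 14.6. All 4 adult values lay above all 8 spermatogonial values, and both PS values lay above both RS values. In spermatogonia 35.6% to 53.0% of all promoters had a higher value than Mybl1, in PS 15.6% and 13.5%, and in RS 28.7% and 27.6%. The summed length of its promoter peaks had medians of 891 bp in spermatogonia, 2297.5 bp in PS and 2081.5 bp in RS. Counted from the start in the direction of transcription, the highest summit lay at -659 to -543 bases in the 4 Thy1+ libraries, at -700 to 213 bases in the 4 c-Kit+ libraries and at 195 to 318 bases in the 4 adult libraries. The c-Kit+ summits thus fell on both sides of the start, and 1 of them lay within the adult range.

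Tcfl5, on the minus strand of chromosome 2 with its start at 180642691, was low in spermatogonia and not called in every library. Peaks were called in 5 of 8 spermatogonial libraries, with values of 5.24 and 5.43 in Thy1+ WT, 8.61 in Thy1+ KO, and 5.67 and 5.25 in c-Kit+ KO. Both c-Kit+ WT libraries and 1 Thy1+ KO library had no peak. The PS values were 19.1 and 20.8 and the RS values 21.1 and 19.5. These 4 values overlap between PS and RS, but by rank Tcfl5 stood higher in RS, where 18.1% and 14.5% of promoters were above it, than in PS, where 29.9% and 28.3% were. The spermatogonial peaks were 146 to 670 bp long and the adult ones 2548 to 2992 bp.

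Rfx2, the RFX factor of spermatids (start 56831008, chromosome 17, minus strand), was called in 3 of the 8 spermatogonial libraries, at 5.24, 9.62 and 6.15. All 3 were replicate 1 libraries, from Thy1+ WT, Thy1+ KO and c-Kit+ KO; replicate 1 had the higher background height in each of the 6 groups. In PS the values were 17.9 and 21.9 and in RS 12.9 and 11.4. The adult peaks were broad, at 3260 to 4055 bp, and the PS summits lay upstream of the start, at -793 and -947 bases. Rfx2 thus ranked highest in PS, with 32.9% and 25.7% of promoters above it, and lower in RS, with 41.6% and 38.6%.

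Among the members called in all 12 libraries, Sox30 showed the widest span in rank. This factor of spermatid gene activation has its start at 45980310 on the plus strand of chromosome 11. Its promoter had a peak in every library. Spermatogonial values ran from 4.96 over a median of 6.54 to 10.6, and the adult values were 35.1 and 32.5 in PS and 33.2 and 36.2 in RS. In spermatogonia 41.2% to 47.4% of promoters ranked above it. In PS these were 1.72% and 6.80%, and in RS 1.58% and 0.319%. The spermatogonial peaks had a length of 180 to 1135 bp and the adult peaks of 2344 to 3177 bp, with the summit 190 to 229 bases downstream of the start in all 4 adult libraries.

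Tbpl1, which encodes the TATA-binding protein relative of spermatids (start 22731447, chromosome 10, minus strand), had a sizeable peak at every stage. In spermatogonia the lowest, median and highest values were 7.58, 11.7 and 21.3. In PS they were 26.3 and 34.1, and in RS 24.6 and 20.0. The highest spermatogonial value, from Thy1+ KO replicate 1, lay above 1 of the RS values. That library had a median promoter fold enrichment of 14.7, the highest of the 8 spermatogonial libraries. By rank, 10.5% to 27.8% of promoters stood above Tbpl1 in spermatogonia and 4.99% to 13.4% in adult cells, so the ranges overlapped.

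**Figure D2:**
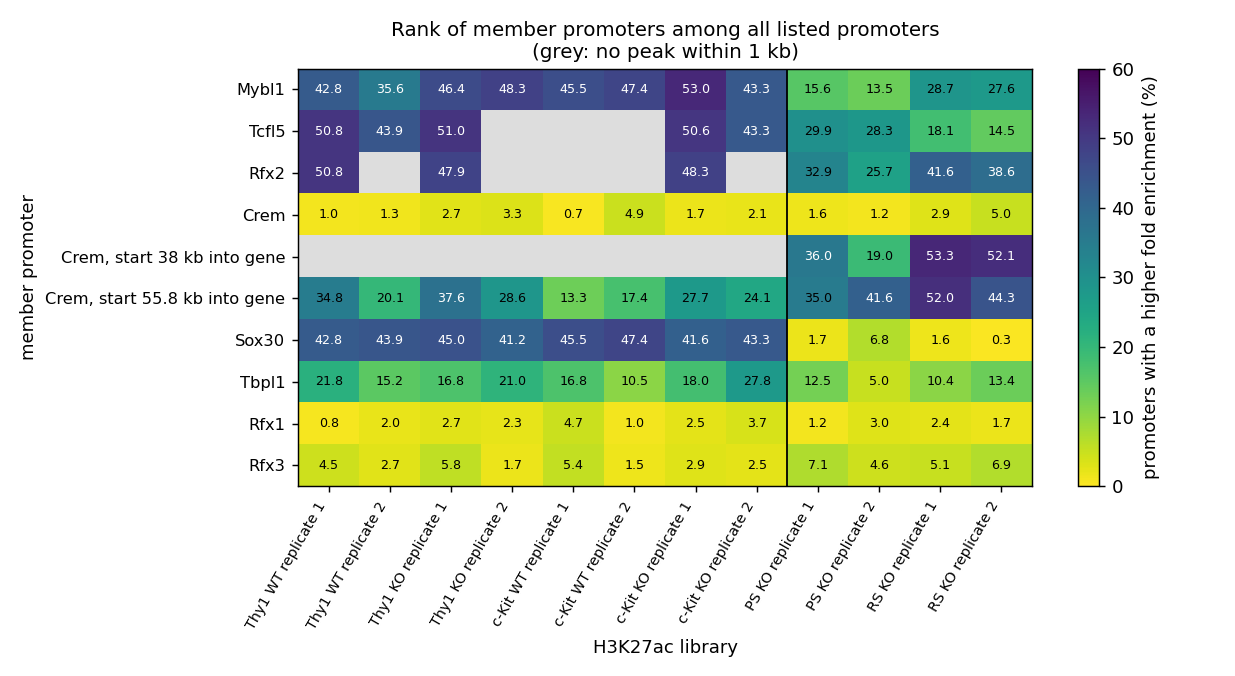
Share of all 19733 listed promoters (%) with a higher fold enrichment than each of 10 member promoters, by H3K27ac library; low values are high ranks and grey cells have no peak within 1 kb. Crem (first start), Rfx1 and Rfx3 stay under 8% in all 12 libraries, while Sox30 goes from 41.2% or more in spermatogonia to 6.80% or less in PS and RS.

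Crem is read from 4 listed starts on the minus strand of chromosome 18, and they behaved differently. The first start, at 3337589, is shared with Gm6225 in the deposited labels, and its peaks cannot be assigned to either gene alone. It was called in all 12 libraries, with a spermatogonial range of 14.3 to 32.4 around a median of 21.1, PS values of 35.5 and 41.6 and RS values of 30.5 and 25.4. In each library at most 5.03% of promoters ranked above it. The start at 3281747, which lies 55.8 kb into the gene, was also called in all libraries, at 8.16 to 13.7 in spermatogonia, 17.2 and 14.9 in PS, and 9.39 and 9.74 in RS. Internal promoters of Crem are known for short repressor forms of the protein (ICER). By rank that start was higher in both PS than in both RS libraries, but it was not higher in adult cells than in spermatogonia.

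A further Crem start, at 3299556 and 38 kb into the gene, had a peak in all 4 adult libraries and in none of the 8 spermatogonial ones, which was the case at 5.8% of all promoters. Its values were 16.8 and 25.1 in PS and 9.00 and 7.57 in RS. Both PS values were above both RS values, and the 4 summits lay upstream of the start, between -457 and -412 bases. The remaining Crem start, at 3327591 and 10 kb into the gene, had no peak in any library. The same was true of the Rfx3 start at 27982948.

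Rfx1 and Rfx3, the widely expressed RFX factors, had strong promoters at every stage. Rfx1 (start 84066836, chromosome 8, plus strand) ran from 14.6 over a median of 20.0 to 32.4 in spermatogonia, and was 36.2 and 36.8 in PS and 31.3 and 30.3 in RS. Rfx3 (start 28011166, chromosome 19, minus strand) ran from 15.7 over 18.4 to 28.4, with 29.4 and 34.7 in PS and 28.2 and 23.8 in RS. For both, the highest spermatogonial value exceeded the lowest adult value. The share of promoters ranked above Rfx1 was 0.760% to 4.71% in spermatogonia and 1.17% to 3.04% in adult cells. For Rfx3 it was 1.45% to 5.76% and 4.56% to 7.06%. In spermatogonia the order of median fold enrichment was Crem (first start, 21.1), Rfx1 (20.0), Rfx3 (18.4), Tbpl1 (11.7), Sox30 (6.54) and Mybl1 (6.01), with Rfx2 and Tcfl5 uncalled in part of the libraries. The ranges of all neighbours in that order overlapped. In PS the order of means was Crem (38.5), Rfx1 (36.5), Sox30 (33.8), Rfx3 (32.0), Tbpl1 (30.2), Mybl1 (26.3), Tcfl5 (19.93) and Rfx2 (19.89). Of the neighbours in that order, Tcfl5 and Rfx2 overlapped in their 2 values, and so did Crem and Rfx1, Sox30 and Rfx3, Rfx3 and Tbpl1, and Tbpl1 and Mybl1.

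Sox5 had almost no signal at its listed start (144209568, chromosome 6, minus strand). A single peak of 3.78 was called there, in c-Kit+ KO replicate 1, where 60.4% of promoters ranked above it. An intronic peak 262.7 kb into the gene was called in both RS libraries, with fold enrichments of 5.87 and 5.95, and in none of the other 10. Its summits were 220 and 163 bases downstream of the internal RefSeq start whose upstream sequence is printed above. The tables list no Sox5 start there, and the peak carries the label intron. No motif other than the RFX core, 16 bases before that start, was matched in the window.

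Genotype could be compared only in spermatogonia. No member promoter passed the test between KO and WT. The comparison took peaks merged into regions that were called in all 8 libraries, scaled each library to its median region, and tested the log2 fold enrichment with limma and Benjamini-Hochberg adjustment. None of the 9585 regions (0%) passed at an adjusted p of 0.05, while 502 had an unadjusted p below it. The 7 member regions, at the promoters of Mybl1, Sox30, Tbpl1, Rfx1, Rfx3 and 2 starts of Crem, had log2 differences of KO minus WT between -0.28 and 0.07, with a median of -0.18 beside -0.04 over all regions, and none passed. The largest in size was at the Crem start at 3281747, with a log2 difference of -0.28 (SE 0.16) and an adjusted p of 0.935. A test of the interaction of genotype and stage also gave 0% of regions called (453 with an unadjusted p under 0.05). Tcfl5 and Rfx2 could not be tested, since not every library had a peak. Nothing in the labels says that replicates came from different animals, so these p-values measure only the spread between the libraries, which may be technical.

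Between c-Kit+ and Thy1+ spermatogonia, 0 of the 7 member regions passed the test, in a comparison where 1.09% of all regions did. Mybl1 had a log2 difference of c-Kit+ minus Thy1+ of -0.14 (SE 0.15, limma adjusted p 0.739) and Sox30 one of -0.02 (SE 0.14, limma adjusted p 0.966). The Crem start at 3281747 had the largest difference of the 7, at 0.31 (SE 0.16, limma adjusted p 0.368).

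Between c-Kit+ KO spermatogonia and KO spermatocytes, the promoters of Mybl1, Sox30 and Tcfl5 rose. Before scaling, the library medians over the shared regions were 1.08 higher in PS on the log2 scale, and the changes here are relative to that shift. Sox30 went from a mean of 6.41 ± 1.64 (SD, n = 2) to 33.8 ± 1.81, a log2 change of 1.35 (SE 0.19, limma adjusted p 0.000403). Mybl1 went from 5.22 ± 0.03 to 26.3 ± 2.08, a log2 change of 1.25 (SE 0.20, limma adjusted p 0.000734). Tcfl5 went from 5.46 ± 0.30 to 19.9 ± 1.22, a log2 change of 0.79 (SE 0.19, limma adjusted p 0.00779). These are 3 of the 9 member regions tested. Of all 12501 regions 31.9% were called, 6.83% as higher and 25.1% as lower (854 and 3138 regions). With quantile normalization, under which the 3 member calls held, these were 386 and 398, and with regions called in at least 1 in 2 libraries 1394 and 1376. The median log2 change was -0.17 over all regions and -0.01 over the 9 member regions.

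The 6 other member regions did not pass. Tbpl1 had a log2 difference of 0.53 (SE 0.21, limma adjusted p 0.0735), which passed without c-Kit+ KO replicate 1 (limma adjusted p 0.00892). The first Crem start had -0.07, Rfx1 -0.01, Rfx3 -0.24, the Crem start at 3281747 -0.28, and the Rfx2 intron region -0.18. The promoter of Rfx2 and the Crem start at 3299556 were not tested, because c-Kit+ KO libraries lacked a peak there. All 3 calls were lost without c-Kit+ KO replicate 2, where the adjusted p was 0.0714 for Mybl1 and Sox30 and 0.0730 for Tcfl5; no region of the table was called in that fit. With regions called in at least 1 in 2 libraries the adjusted p of Sox30 was 0.05002, just past the threshold. All 3 regions dropped out of the test when only peaks with a −log10 q of at least 5 were read. The Sertoli cell gene Amh rose in the same comparison, by 0.76 (SE 0.25, limma adjusted p 0.0332). The meiotic gene Sycp1 rose as well, by 1.19 (SE 0.19, limma adjusted p 0.000628). The Leydig cell gene Star, at -0.15 (SE 0.20, limma adjusted p 0.613), did not pass. The part of somatic cells in the member values was not tested.

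**Figure D3:**
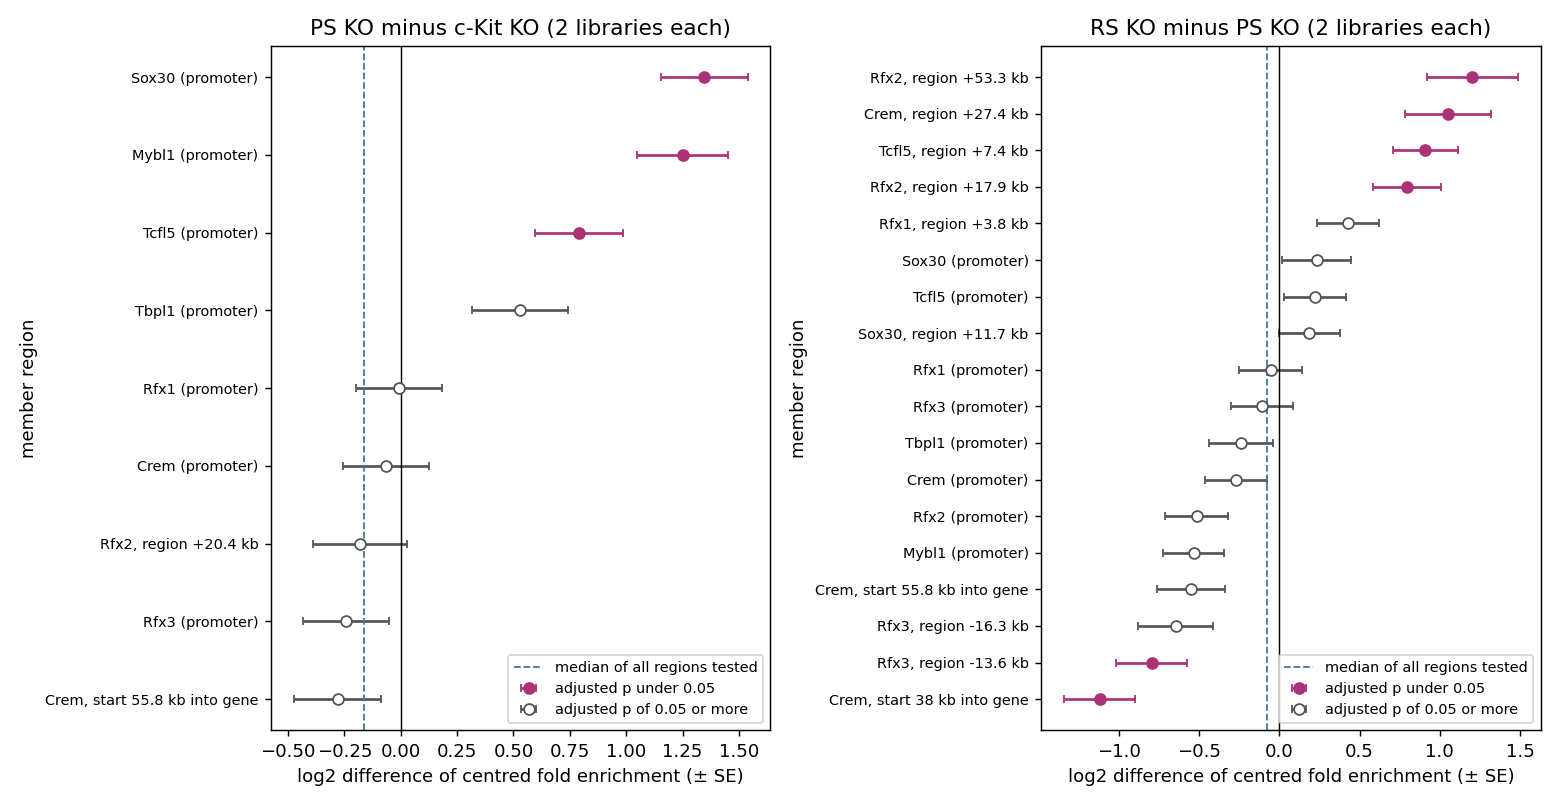
Log2 differences of fold enrichment after scaling each library to its median region (horizontal axis, bars are the SE from limma), for the 9 member regions of PS KO against c-Kit KO and the 18 of RS KO against PS KO, with 2 libraries a group. Filled points have an adjusted p under 0.05 and the dashed line is the median of all regions tested; Sox30 is at 1.35 on the left, and the Crem start 38 kb into the gene is at -1.12 on the right.

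From spermatocytes to round spermatids, 1 of 10 member promoters and 5 of 8 other member regions passed the test. Over the whole table, 10.1% of 11462 regions within 1 kb of a listed start passed (4.76% higher and 5.36% lower), and 31.9% of 9867 regions away from listed starts (21.3% higher and 10.6% lower). Before scaling, the library medians over the shared regions differed by -0.19 (RS minus PS, log2 scale). Of the 6 member regions that passed, 4 were higher and 2 lower in RS. The share over 21329 regions was 20.2%, with 12.4% higher and 7.79% lower (2648 and 1661 regions). That balance turned to 3126 higher and 3896 lower with regions called in at least 1 in 2 libraries. The median log2 change was -0.08 both over all regions and over the 18 member regions. The promoter that passed was the Crem start at 3299556. It fell from a mean of 20.9 ± 5.85 (SD, n = 2) to 8.28 ± 1.01, a log2 change of -1.12 (SE 0.22, limma adjusted p 0.0114). Mybl1 had a log2 difference of -0.53 (SE 0.19, limma adjusted p 0.0785), Rfx2 one of -0.52 (SE 0.20, limma adjusted p 0.0961), Sox30 one of 0.23 (SE 0.21, limma adjusted p 0.489) and Tcfl5 one of 0.22 (SE 0.19, limma adjusted p 0.465). With regions called in at least 1 in 2 libraries, this Mybl1 difference was -0.73 and passed the test (limma adjusted p 0.0447). By rank alone, Crem at 3 starts, Mybl1 and Rfx2 were higher in both PS than in both RS libraries, where 23.5% of promoters were. Sox30 and Tcfl5 were higher in both RS libraries, where 20% of promoters were.

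The regions that rose in RS lay in Rfx2, Crem and Tcfl5. Near the 3′ end of Rfx2, 53.3 kb from its start, a region at chr17:56775485-56780002 that also carried the label of Nrtn went from 9.53 and 5.33 in PS to 15.3 and 13.5 in RS, a log2 change of 1.20 (SE 0.28, limma adjusted p 0.0187). In the Rfx2 intron at chr17:56809025-56817280, 17.9 kb from the start, values of 16.02 and 12.8 in PS became 24.3 and 19.5 in RS, a log2 change of 0.80 (SE 0.21, limma adjusted p 0.0274). Both increases were opposite in sign to the difference at the Rfx2 promoter, which did not pass. A Crem region 27.4 kb into the gene, at chr18:3308850-3311551, went from 7.63 and 4.80 to 10.6 and 11.4, a log2 change of 1.05 (SE 0.27, limma adjusted p 0.0250). The Tcfl5 region at chr2:180634138-180636477, which covers exon and intron 7.4 kb into the gene, went from 3.43 and 3.20 to 5.48 and 5.41, a log2 change of 0.91 (SE 0.20, limma adjusted p 0.0158). In none of these 4 regions did the PS and RS values overlap. The Tcfl5 value of 3.20 in PS replicate 2 was the lowest fold enrichment called in that library. When only peaks with a −log10 q of at least 5 were read, the Tcfl5 region and this Crem region dropped out of the test. So did the Rfx3 region that passed, described next.

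An Rfx3 region upstream of the gene, at chr19:28024341-28025189 at -13.6 kb from the start, fell from 7.24 and 10.1 in PS to 4.30 and 4.33 in RS, a log2 change of -0.80 (SE 0.22, limma adjusted p 0.0338). Its neighbour at chr19:28026701-28028269, at -16.3 kb, had the highest PS values of the distal member regions, with 27.1 and 42.1 in PS and 19.9 and 17.9 in RS. That difference, -0.65 (SE 0.23, limma adjusted p 0.0791), did not pass, except without PS replicate 1 (limma adjusted p 0.0391). Neither region had a peak in any spermatogonial library.

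All 6 calls between PS and RS were lost without PS replicate 2, with adjusted p values of 0.159 to 0.207 in a fit that called no region of the table. Without that library the log2 changes were 0.65 at the 3′ region of Rfx2, 0.50 at the Rfx2 intron and 0.58 at the Crem region at 3308850, each less by over 1.5 times, and -0.97 at the Crem start, -0.69 at the Rfx3 region and 0.72 at the Tcfl5 region. The Rfx2 intron, the Tcfl5 region, the Crem region at 3308850 and the Rfx3 region each lost the call without at least 1 RS library too, while the Crem start at 3299556 and the 3′ region of Rfx2 kept it without either RS library and without PS replicate 1. With regions called in at least 1 in 2 libraries, both Rfx2 regions, the Crem region at 3308850 and the Tcfl5 region had adjusted p values of 0.0527 to 0.0978 and lost the call. Somatic and earlier germ cell markers moved in this comparison as well. Wt1 fell by 1.09 (limma adjusted p 0.00935), Amh by 0.90 (limma adjusted p 0.0429), Star by 0.67 (limma adjusted p 0.0343) and Etv5 by 0.83 (limma adjusted p 0.0170). Id4, at -0.87 (limma adjusted p 0.0238), and Kit, at -0.81 (limma adjusted p 0.0492), fell too. Zbtb16, at -0.29 (limma adjusted p 0.357), and Dmrtb1, at -0.28 (limma adjusted p 0.456), did not pass. The part of the cells these genes mark in the member values was not tested.

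Away from the promoters, the members held 71 separate regions, and 65 of the 71 (91.5%) had no peak in any spermatogonial library. Over all 111089 merged regions away from listed starts this share was 67.9%, in libraries with unequal numbers of peaks. Both PS libraries had a peak in 15 of the 71 (21.1%, against 20.3% of all such regions), both RS libraries in 21 (29.6%, against 20.5%), and all 4 adult libraries in 8 (11.3%, against 8.86%). Mybl1 had no peak away from its promoter in any library. Rfx2 had the most, with 18 regions, followed by Rfx3 with 13, Sox5 with 9, Sox30 with 8, Tbpl1 and Rfx1 with 7 each, Tcfl5 with 5 and Crem with 4.

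The Rfx2 intron region was the only distal member region with a peak in all 12 libraries. Spermatogonial values ran from 4.66 to 8.61, and the peaks there were short and split, with a longest peak of 0.1 to 0.8 kb. In PS the longest peak was 3.1 and 2.9 kb. In RS replicate 1 a single peak of 8.3 kb covered the region, and in RS replicate 2 the longest was 3.8 kb. The 5 spermatogonial libraries without an Rfx2 promoter peak were among those with a peak in this intron. A part of the region, 20.4 kb from the start, was the one tested between c-Kit+ KO and PS above.

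**Figure D4:**
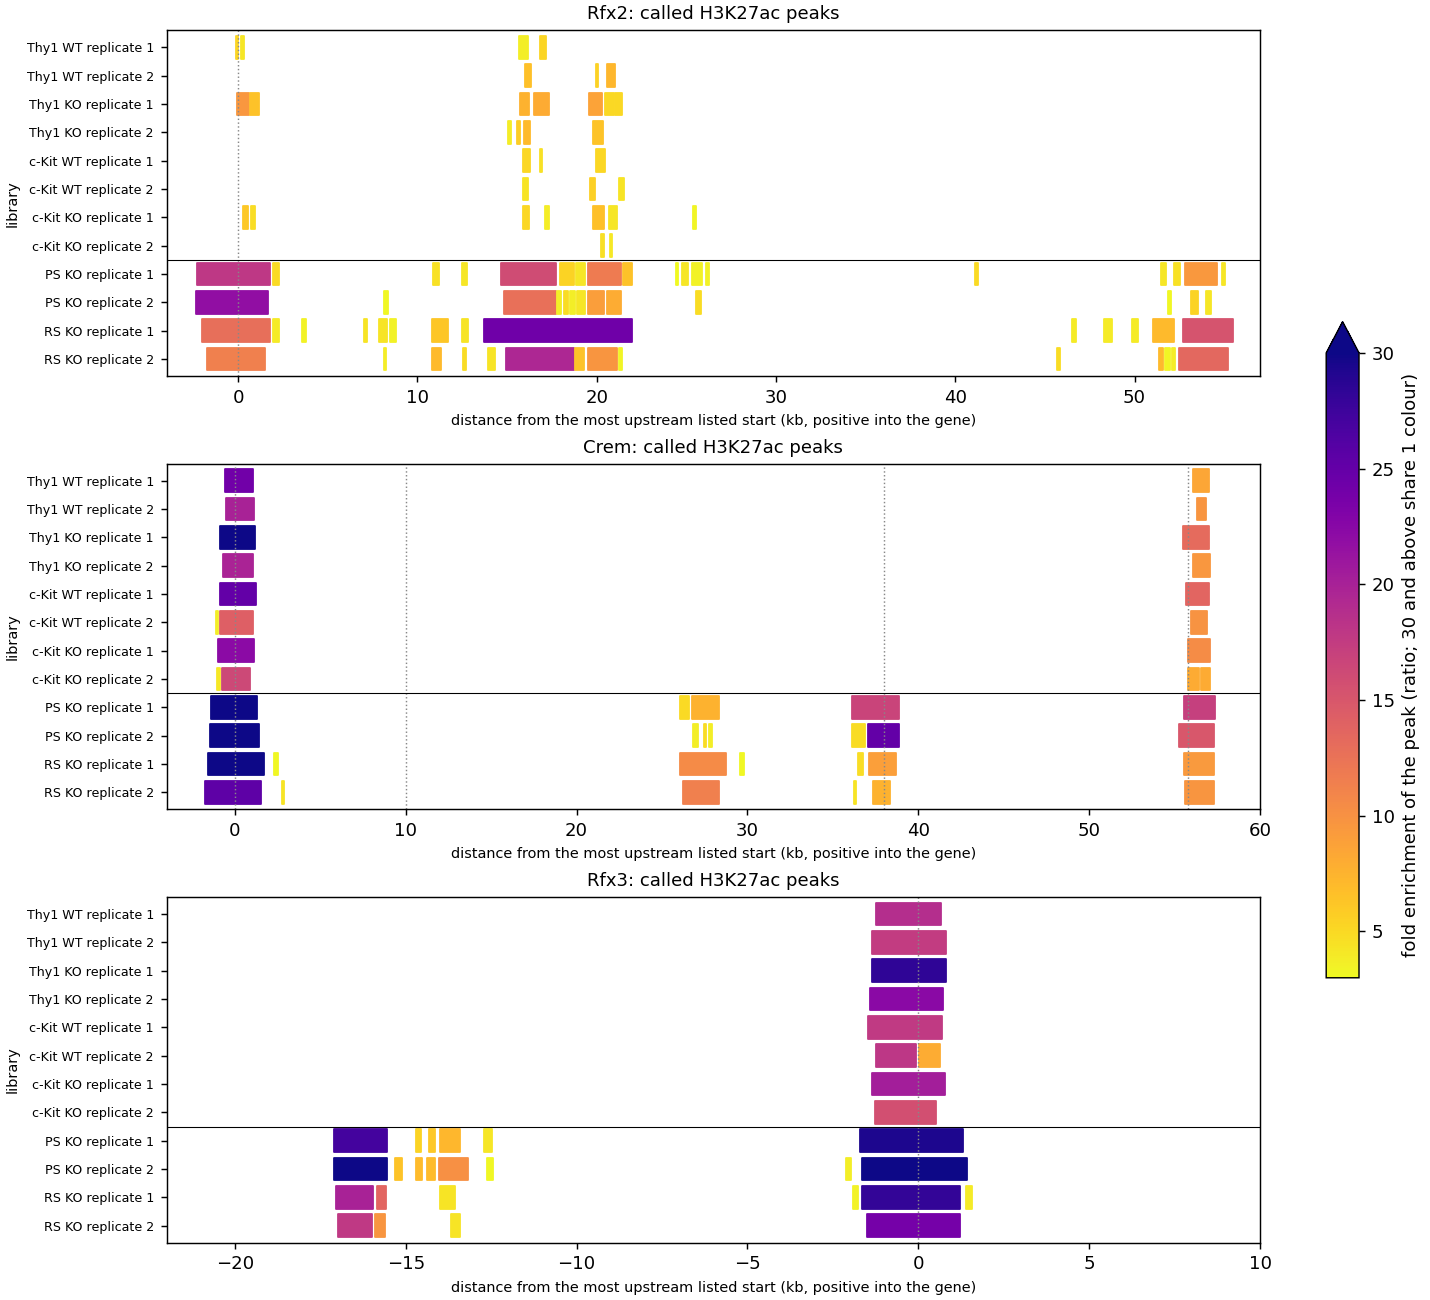
Called H3K27ac peaks of Rfx2, Crem and Rfx3 in the 12 libraries, drawn to scale by distance from the gene's most upstream listed start (kb, positive into the gene), coloured by fold enrichment; dotted lines are listed starts. The Rfx2 intron peaks around 17.9 kb are in every library and merge into 1 peak of 8.3 kb in RS replicate 1, while the Crem peaks at 27.4 and 38 kb and the Rfx3 peaks at -16.3 kb are in adult libraries only.

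In Rfx1, Sox30, Tbpl1 and Sox5 no distal region had a fold enrichment above 9.78 in any library. The Rfx1 region called in the most libraries was in an intron at chr8:84072972-84073623, 6.5 kb into the gene, called in 3 spermatogonial, 1 PS and 2 RS libraries at 3.79 to 5.12. For Sox30 it was at chr11:45991552-45992377, 11.7 kb into the gene, called only in the 4 adult libraries, at 3.43 and 3.73 in PS and 3.91 and 3.25 in RS. Another Sox30 intron region, at chr11:46005748-46007514 and 26.3 kb into the gene, was chosen after its values were seen: it was called at 4.19 in 1 PS library and at 9.78 and 6.49 in the RS libraries. In Tbpl1, 2 regions were called in 3 libraries each, 1 of them at chr10:22715925-22716239, 15.4 kb into the gene, with 3.05 in 1 PS library and 3.52 and 4.33 in RS. The Sox5 region called in the most libraries was at chr6:144021436-144022536, 187.6 kb into the gene, with 3.43 in 1 PS library and 5.08 and 5.41 in RS. The Tbpl1 value of 3.05 in PS and the Sox30 value of 3.25 in RS were the lowest fold enrichments called in their libraries. The inputs held 4 peaks with a member's label, 2 of Rfx3 outside the gene and 2 of Sox5 in an intron, and none of them was at a region named here.

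Genes related to the members were of both kinds, called at every stage or mainly in adult cells. Of 20 family relatives, partners and general factors, 18 had a listed start, 7 of them ranked higher in every adult than in every spermatogonial library (11.9% of all promoters did), and none ranked lower (8.06% of all promoters did). The fits tested 9 of their regions between c-Kit+ and PS, with 0 higher and 1 lower (Sox13, by 0.60, limma adjusted p 0.0300), where 6.83% of all regions were higher and 25.1% lower. Between PS and RS they tested 17, all within 1 kb of a listed start, with 2 higher and 1 lower. Over all such regions the shares were 4.76% and 5.36%. Among the CREB family and the partners of CREM, Creb3l4, Fhl5 (ACT, the testis coactivator of CREM) and Kif17 (a kinesin that moves it) were among the 7, while Creb1 and Atf1, the widely expressed relatives, were called everywhere and were not. Fhl5 had no spermatogonial peak within 1 kb of its start, a mean of 4.92 ± 1.68 (SD, n = 2) in PS and 11.6 ± 0.39 in RS, a log2 rise of 1.48 (SE 0.27, limma adjusted p 0.00990). Creb3l4 rose by 1.07 (SE 0.30, limma adjusted p 0.0337) in RS, from 9.30 ± 4.10 to 16.4 ± 3.33. In the RFX family Rfx4 had no such spermatogonial peak either and fell from 21.3 ± 3.11 in PS to 11.3 ± 2.24 in RS, by 0.72 (SE 0.20, limma adjusted p 0.0315), while Rfx5 and Rfx7 were called in all libraries. The calls of Fhl5, Creb3l4 and Rfx4, like those of the members, rest on PS replicate 2. Rfx6 and Tbpl2 had no listed start, as no peak was labelled with either symbol alone.

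Of the general factor genes, Gtf2a1l and Taf7l, testis forms of subunits of TFIIA and TFIID, and Gtf2b, the TFIIB gene, were among the 7. Gtf2b was also called in all 8 spermatogonial libraries, with a median of 9.96. Tbp, Gtf2a1 and Taf4b were called in all 8 as well and were not among the 7. Gtf2a1l had no spermatogonial peak within 1 kb of its start and was at 10.1 ± 3.01 (SD, n = 2) in PS and 7.23 ± 0.28 in RS. Its place among the 7, like those of Fhl5 and Rfx4, thus follows from its calls alone. Myb had no peak in any library, and Mybl2 was called in 5 of 8 spermatogonial libraries and in all adult ones at 7.86 to 8.50 on average.

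Genes known as targets of MYBL1 or CREM, where listed, all ranked higher in every adult library (9 of 9, against 11.9% of all promoters). For Piwil1 and the listed CREM targets, which had no spermatogonial peak within 1 kb of the start, this follows from the calls alone. The 4 targets of MYBL1, Piwil1, Mael, Mov10l1 and Tdrd1, are all in the piRNA pathway. Their PS means were 16.3 to 32.4 and their RS means 12.8 to 24.9. Of the 5 regions tested within 1 kb of their listed starts, 1 passed between PS and RS, where 10.1% of all such regions did. It lay at a further listed start of Tdrd1 and rose by 0.98 in RS (SE 0.29, limma adjusted p 0.0430). For CREM, 5 of 6 targets had a listed start (Prm2 had none), and none of the 5 had a spermatogonial peak within 1 kb of that start. A merged region that reached within 1 kb of the Tnp2 start had peaks in both c-Kit+ KO libraries, all farther from that start. Its log2 difference of PS minus c-Kit+ was 0.44 (SE 0.19, limma adjusted p 0.0990). Odf1, an outer dense fibre gene, rose from 12.01 ± 5.67 (SD, n = 2) in PS to 23.1 ± 2.12 in RS, by 1.22 (SE 0.31, limma adjusted p 0.0244). Tnp1, the transition protein gene, rose by 1.18 (SE 0.27, limma adjusted p 0.0183) and Smcp by 0.99 (SE 0.22, limma adjusted p 0.0166). The calls of Tdrd1, Odf1, Tnp1 and Smcp, like those of the members, rest on PS replicate 2. Prm1, a protamine gene, had a log2 difference of 0.92 (SE 0.32, limma adjusted p 0.0751) and Tnp2 of 0.01 (SE 0.20, limma adjusted p 0.982), so 3 of the 5 passed. Of all regions within 1 kb of a listed start, 10.1% passed, 4.76% as higher. The median over the 5 was 0.99, beside -0.08 over all regions. For Tnp2 the region tested was a merged one from 10781346 to 10795455, read at its highest peak in each library. Within 1 kb of the Tnp2 start the means were 20.9 ± 16.8 (SD, n = 2) in PS and 27.1 ± 3.15 in RS. The Tnp2 difference of 0.01 is therefore not that of the start alone.

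For each of the 9 member starts called in at least 6 libraries, the gene whose promoter followed it most closely over the 12 libraries was found by Pearson correlation of centred log2 fold enrichment, among 12296 promoters. A library without a peak was given its lowest promoter value, which fills 5 of the 12 points of Rfx2 and 3 of those of Tcfl5. The neighbour of Sox30 was Tmem8 (r = 0.984), that of Tcfl5 was Sac3d1 (r = 0.974), that of Mybl1 was Asb1 (r = 0.973) and that of Rfx2 was 1700052N19Rik (r = 0.969). Tbpl1 was nearest to Lsm10 (r = 0.958) and the Crem start at 3281747 to Sod3 (r = 0.949), with Rfx3 nearest to Lrrc8c (r = 0.911) and Rfx1 to Rps6ka4 (r = 0.910). The first Crem start had r = 1 with Gm6225, which is the same peak under a shared label. Among the members, Sox30 and Tcfl5 had r = 0.931, Mybl1 and Sox30 0.887, and Rfx2 and Tcfl5 0.878, whereas Rfx1 and Sox30 had 0.222. The coefficients of Rfx2 and Tcfl5 rest in part on those filled values. Filled values also enter for the neighbours Tmem8, called in 8 of the 12 libraries, Sod3, called in 10, and Lsm10 and Rps6ka4, called in 11 each. The coefficients of Sox30, the Crem start at 3281747, Tbpl1 and Rfx1 with these neighbours thus rest in part on them too. All points share the libraries, and their depth goes with stage, so these coefficients are a description of 12 libraries.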

How the data were processed

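H3K27ac ChIPmentation and input libraries (28 in all, grouped by the sample titles) each came as a table of called peaks. Per the submitters' processing notes, Bowtie, MACS2 and the mm10 build were used; versions and read filters are not given in the sources used here. Per the file headers, the deposited table gave each summit's signal height, its fold enrichment (a ratio over background) and −log10 p and −log10 q values, with the nearest transcript. No confidence interval was computed, since read depth is unknown.

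A peak's value was that of its tallest summit; peaks on mitochondrial DNA were not used. A promoter call needed a peak within 1 kb of a start listed under the symbol alone; 500 bp was tried as well. For each comparison, peaks overlapping by at least 1 bp were merged, and regions called in every library compared were tested as log2 fold enrichment, centred on each library's median, with limma 3.58.1 (R 4.3.3), Benjamini-Hochberg adjustment over all regions and a threshold of 0.05. The limma step was tested on simulated data. Tables were read with Python 3.11.15 and pandas 2.3.3. RefSeq (GRCm38.p6, the mm10 assembly) supplied promoter sequences.

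Members and lists were chosen with earlier results of these data known. Named are all members at their promoters, for each the distal region called in most libraries, each member region past the threshold, and the closest gene by pattern.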

Additional observations from a re-analysis of the deposited data

How the results depend on the processing

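Same-numbered libraries were not treated as pairs, since nothing in the labels ties them to each other. Their deviations from the group means correlated at 0.000391 to 0.159, and whether they share an animal or a day is not known. With a replicate block, 206 regions were called between c-Kit+ and Thy1+ (104 without), 0 for genotype, 3705 between PS and c-Kit+ and 4456 between RS and PS, and every member call was kept. With quantile normalization 784 regions were called between PS and c-Kit+ in place of 3992 (386 higher and 398 lower, against 854 and 3138). Peaks with a −log10 q of at least 5 gave 18, 2013 and 1982 regions in the 3 stage comparisons in order of stage, with 0 member regions called between PS and c-Kit+ and 3 between RS and PS. Regions called in at least 1 in 2 libraries, with uncalled values at the lowest, gave 805 between c-Kit+ and Thy1+ and 7022 between RS and PS. Leaving out regions that overlap input peaks gave 160 between c-Kit+ and Thy1+.

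Leaving out 1 library at a time gave 0 regions for genotype, 9 to 178 between c-Kit+ and Thy1+ (9 without Thy1+ WT replicate 1), 0 to 4564 between PS and c-Kit+ and 0 to 3402 between RS and PS; member regions called ran from 0 to 4 and from 0 to 8. A lone library was assumed to vary like the others. Member promoter calls were 105 with a 500 bp limit or with summits only, 94 at the stricter q and 95 to 98 with a library left out.

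No called member value changed sign. Signs changed only at member regions that were not called, with the cause not tested. Under quantile normalization these were the log2 differences of Rfx3 by genotype (0.035), of the Rfx2 intron (0.23), the first Crem start (0.093) and Rfx1 (0.14) between PS and c-Kit+, and of Rfx1 (0.0012) and the Sox30 region at 11.7 kb (-0.017) between RS and PS. Under the stricter q they were Rfx3 by genotype (0.021), and Rfx3 (0.052) and Rfx1 (0.11) between RS and PS. With regions called in at least 1 in 2 libraries they were Rfx3 between c-Kit+ and Thy1+ (-0.041), the Rfx2 intron (0.13), both Crem starts (0.029 and 0.24), Rfx3 (0.067) and Rfx1 (0.30) between PS and c-Kit+, and the Sox30 region (-0.0080) between RS and PS. With an overlap of 50% it was Rfx1 between PS and c-Kit+ (0.028). With 1 library left out, values ran from -0.12 to 0.067 for Rfx3 by genotype, and between c-Kit+ and Thy1+ from -0.083 to 0.090 for Tbpl1, -0.062 to 0.00026 for Sox30, -0.11 to 0.084 for the first Crem start and -0.069 to 0.095 for Rfx3. Between PS and c-Kit+ they ran from -0.35 to 0.075 for the Rfx2 intron, -0.12 to 0.067 for the first Crem start and -0.028 to 0.11 for Rfx1, and between RS and PS from -0.0051 to 0.43 for Sox30 and -0.20 to 0.063 for Rfx1.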
